A study of Mus musculus with 4 samples.

Results

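The DNA replication genes described here are 49 genes that encode the machinery that licenses and fires replication origins, unwinds and copies DNA, supplies its nucleotides and packs the new strands. They were chosen by function from a list of gene symbols, and their values were read from all probe sets of the array that carry such a symbol alone. Of the 49 genes, 48 had at least 1 such probe set, with 105 probe sets in all, and 47 were bright enough to be compared. The same filter on level left 11551 of the 18194 genes named on the array. Chaf1a had no probe set of its own symbol alone. Tyms, the thymidylate synthase gene, was below the filter at all 4 of its probe sets, the highest of which read 5.47, 5.44, 5.19 and 5.64 in the order of arrays given next, so neither is part of the counts.

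The samples were murine embryonic stem cells (CM7/1) labelled as overexpressing Hey1 or Hey2, transcriptional repressors downstream of Notch receptors. Cells of either kind (the Hey1 line, the Hey2 line) were profiled uninduced and after 48 h of doxycycline at 1000 ng/ml. There was 1 Affymetrix array of total RNA in each of the 4 groups, always listed as the Hey1 line uninduced and induced and then the Hey2 line uninduced and induced. The sources used here do not say whether a line is a single clone, and no array of cells given doxycycline without a Hey gene was analysed here. Values are on the log2 scale after RMA, so a difference of 1 is 2-fold. Each gene is represented by its brightest probe set by mean unless another is named.

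The probe set of Hey1 read 6.73 in uninduced and 6.51 in induced cells of its own line, and that of Hey2 read 4.25 and 4.34 in its own line, below the level filter of 6.05. The first was lower where the label would have it higher and the second was too dim to test its label, so each doxycycline array is called labelled induced. It is not known if they detect transcripts of the introduced genes, so they may not bear on the induction at all. All 10 pluripotency markers passed the filter, with Pou5f1 between 13.67 and 13.76 in the 4 arrays. Of 11 fibroblast markers 4 passed (Col1a2, Thy1, Fn1 and Vim), and the collagen genes Col1a1 and Col3a1 did not. Embryonic stem cells can express Thy1, Fn1 and Vim themselves.

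Origins are licensed in G1, when the origin recognition complex, Cdc6 and Cdt1 load the ring-shaped MCM helicase onto DNA. In S phase the kinase Cdc7 with its partner Dbf4, together with Cdc45, the GINS complex and Mcm10, turns these rings into active helicases, and DNA polymerases follow with the sliding clamp Pcna. Transcription of many of these genes is under the control of E2F factors, which pocket proteins of the Rb family restrain in G1. Mouse embryonic stem cells have a short G1 and a large share of cells in S phase, and they express this machinery at high levels.

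Doxycycline made little difference to the replication genes in either line. In the Hey1 line the differences, labelled induced minus uninduced, ran from -0.15 (Gins1) to 0.34 (Prim2) over the 47 genes, with a median of -0.00042 beside -0.012 for all genes compared. In the Hey2 line they ran from -0.31 (Fen1) to 0.34 (Pola1), with a median of -0.025 beside -0.021. At its brightest probe set, no member differed by as much as 1.3-fold (0.379 on the log2 scale) in either line or direction. Some dimmer probe sets above the filter did. In the Hey1 line they were probe sets of Orc4 (0.58) and Cdc7 (-0.41). In the Hey2 line they were probe sets of Orc4 (0.44), Orc2 (0.38) and Mcm3 (-0.42). Of all genes compared, 3.97% were at least 1.3-fold higher and 2.29% lower in the Hey1 line, and 7.0% were higher and 8.22% lower in the Hey2 line. At 1.5-fold, which no member reached either, these shares were 1.55% and 0.519% in the Hey1 line and 2.64% and 2.36% in the Hey2 line. In the Hey1 line 24 members lay below 0 (51.1%, where 53.4% of all genes did), and in the Hey2 line 27 did (57.4%, where 54.0% of all did). In both lines at once 15 members were lower (31.9%, where 35.7% of all genes were) and 11 higher (23.4%, where 28.2% were), so neither direction prevailed.

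The members also lay closer together than genes at large. In the Hey1 line 46 of the 47 were within 1.2-fold of their uninduced value, a share of 97.9% where 85.6% of all genes were. In the Hey2 line 45 were, 95.7% where 72.7% of all genes were. Their scaled median absolute deviation was 0.11 in each line, beside 0.15 and 0.21 for all genes, and 0.13 and 0.16 for the 6912 genes above a stricter level filter of 8.31, which all 47 members passed. Each of these differences is between 2 arrays and has no replicate check.

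**Figure D1:**
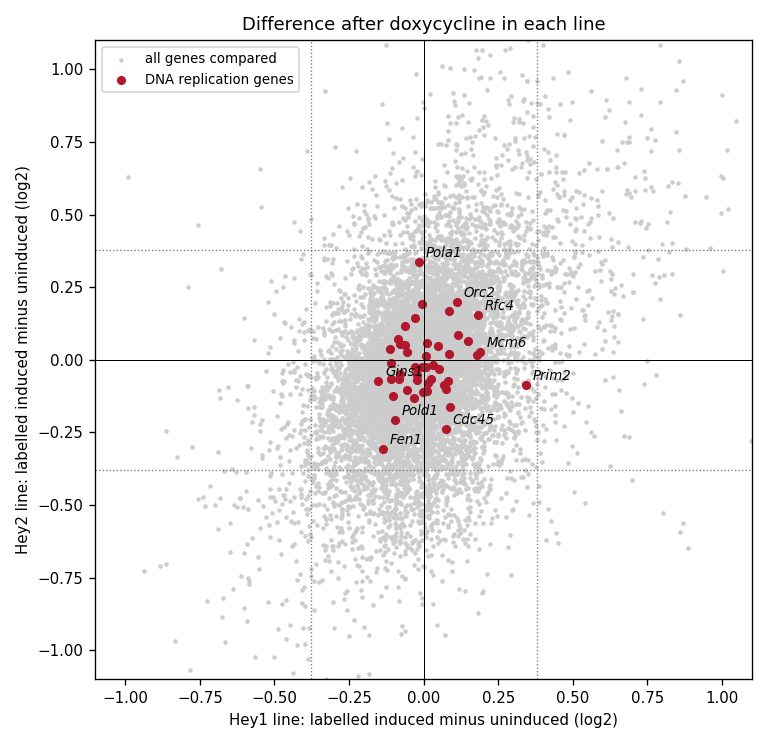
Log2 difference of labelled induced minus uninduced arrays, in the Hey1 line (horizontal) and the Hey2 line (vertical). Red points are the 47 DNA replication genes and grey points all genes compared, of which 87 lie beyond the axes at 1.1, and dotted lines mark 1.3-fold. All red points lie inside the dotted square, with Prim2, Pola1 and Fen1 nearest to its edges.

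Prim2, the large subunit of the primase that starts each new strand, had the largest difference in the Hey1 line among the brightest probe sets. Its values were 10.07 in Hey1 uninduced, 10.41 in Hey1 labelled induced, 10.02 in Hey2 uninduced and 9.94 in Hey2 labelled induced, so the Hey1 labelled induced array stood above all others. A second Prim2 probe set above the filter did not show this (-0.02 in the Hey1 line).

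Pola1, the catalytic subunit of polymerase alpha, had the largest in the Hey2 line among the brightest probe sets. It read 10.98 and 10.96 in the Hey1 line and 10.56 and 10.90 in the Hey2 line. Here the uninduced Hey2 array was the low one and the labelled induced Hey2 array lay near the Hey1 line. Fen1, the nuclease that trims Okazaki fragments, read 12.02 and 11.89 in the Hey1 line and 12.09 and 11.78 in the Hey2 line. Among the brightest probe sets it was lower by most in the labelled induced arrays of both lines together, and the ranges of the lines overlapped. A second Fen1 probe set above the filter had -0.0064 in the Hey1 and -0.16 in the Hey2 line.

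By role, the helicase genes Mcm2 to Mcm7 were between -0.03 (Mcm7) and 0.19 (Mcm6) in the Hey1 line and between -0.09 (Mcm3) and 0.07 (Mcm5) in the Hey2 line. The licensing genes ran from -0.10 (Cdt1) to 0.18 (Cdc6) and from -0.13 (Cdt1) to 0.20 (Orc2), with Orc3 at 0.19 in the Hey2 line. Cdt1 and its inhibitor Gmnn (-0.08 and -0.05) were slightly below 0 in both lines. Among the firing genes the lowest were Gins1 (-0.15) and Cdc7 (-0.11) in the Hey1 line and Cdc45 (-0.24) and Gins2 (-0.16) in the Hey2 line. All of these are differences of less than 1.3-fold.

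The clamp loader gene Rfc4 was among the 5 largest positive differences in each line (0.18 and 0.16). Mcm5 completed those of the Hey1 line (0.15), and the single-strand binding gene Rpa3 those of the Hey2 line (0.17). On the negative side stood Rrm1, the large subunit of ribonucleotide reductase, and the clamp gene Pcna, each at -0.11 in the Hey1 line, and Pold1 (-0.21) and Rfc5 (-0.13) in the Hey2 line. Chaf1b, of the histone chaperone that follows the fork, had 0.08 and -0.07. Rank correlation between the responses of the lines, which share no array, was 0.171 over the 47 members and 0.378 over all genes, as Spearman's rho and as a description only.

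The response common to both lines was tested with limma over all 11551 genes, blocked on the line, so that the Hey1 and Hey2 inductions count as repeats of 1 treatment. No gene of the array passed an adjusted p of 0.05, and the members' adjusted p ran from 0.387 (Fen1) upward. At an unadjusted p of 0.05, 0 members were higher and 0 lower, where 7.0% of all genes were higher and 6.48% lower. At the brightest probe sets the largest common differences were those of Fen1 (-0.22 ± 0.09, SE) and Rfc4 (0.17 ± 0.08), from 2 lines each. In a fit over every probe set, a second Fen1 probe set had -0.08. There the Orc2 probe sets had 0.16, 0.25 and 0.32, a dim Orc4 probe set 0.51 and a dimmer Cdc7 probe set -0.26. No probe set passed an adjusted p of 0.05 in that fit. A member's SE had a median of 0.082. It rested on 1 residual degree of freedom and on a prior variance drawn from all genes, with 3.08 degrees of freedom. When the prior variance followed the level and was estimated robustly, limma called 225 genes higher and 190 lower, and 0 of these were members.

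A difference between the lines was larger and ran mostly one way. In uninduced cells 37 of the 47 members were lower in the Hey2 line (78.7%, where 46.6% of all genes were), with a median of -0.15 beside 0.023 for all genes. In the labelled induced arrays 36 of 47 were lower (76.6%, where 52.6% of all genes were), with a median of -0.14 beside -0.015. These comparisons share no array. In bulk RNA fewer cells in S phase and less RNA per cell cannot be told apart. At the stricter level filter the medians of all genes were -0.011 and -0.0029, and those of the members stayed as they were, since all 47 passed it.

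In both states at once 34 members were lower in the Hey2 line (72.3%, where 35.7% of all genes were) and 8 higher (17.0%, where 36.4% were). For the same 34 members both arrays of the Hey2 line lay below both arrays of the Hey1 line, as they did for 27.1% of all genes, and for the same 8 they lay above, as they did for 27.8%. The 34 held all 6 of Mcm2 to Mcm7, all 6 Orc genes, Cdc6 and Gmnn, and the 3 measured genes of nucleotide supply. The 8 were Cdt1, Dbf4, Gins4, Pola2, Pold1, Pole, Rfc5 and Chaf1b. The ranges overlapped for Gins2, Pold2, Rfc1, Rpa1 and Fen1. These shares are descriptions of 4 arrays, in which members are not replicates of each other.

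**Figure D2:**
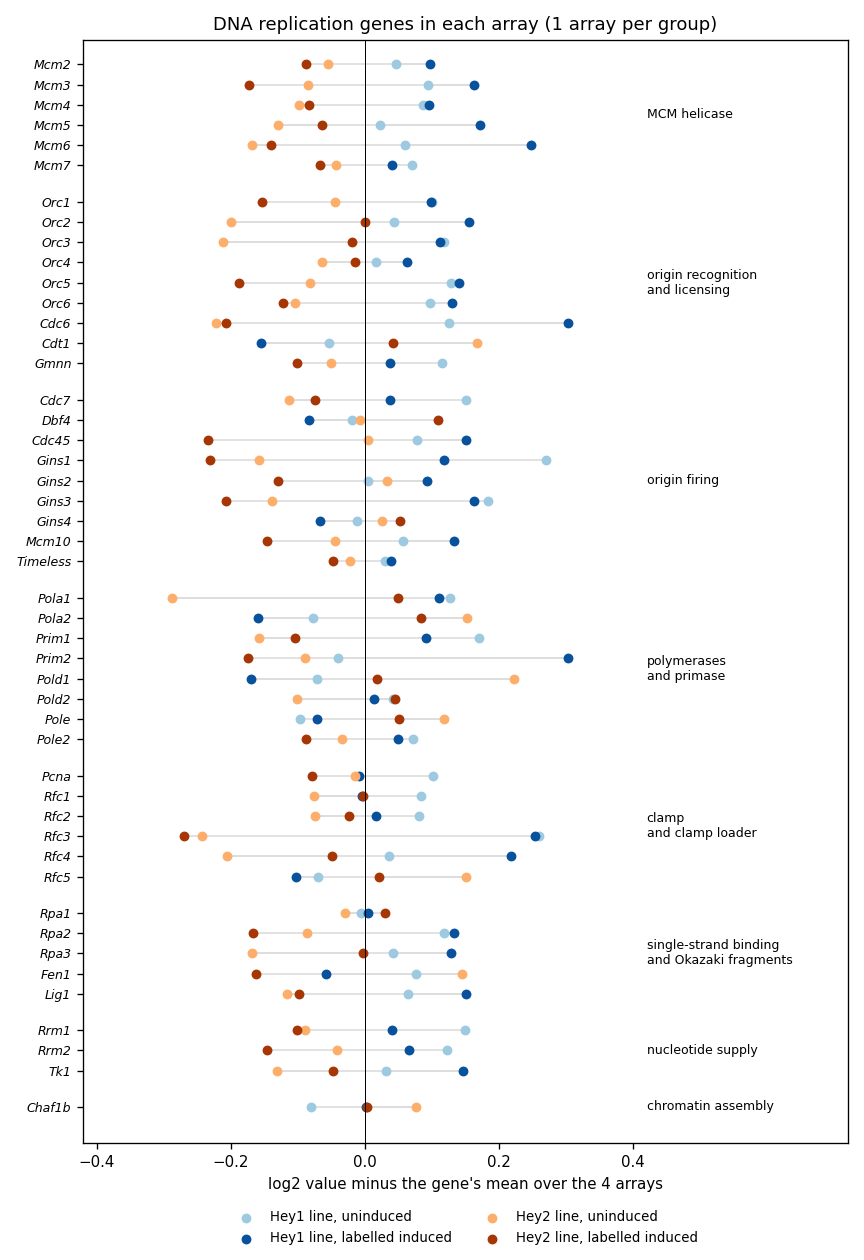
Value of each of the 47 members in each of the 4 arrays, as the log2 value minus the gene's mean over the arrays (horizontal), by role. Blue points are the Hey1 line and orange to brown points the Hey2 line, with the darker shade labelled induced. In 34 genes both Hey2-line points lie left of both Hey1-line points, and in 8 genes, such as Pold1, they lie right of them.

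**Figure D3:**
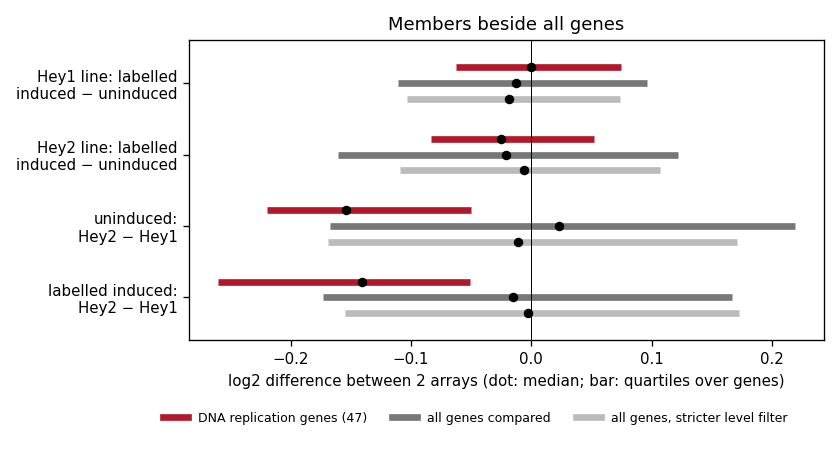
Median (dot) and quartiles (bar) of the log2 difference between 2 arrays over the 47 members, over all 11551 genes compared and over the 6912 genes above the stricter filter, for each comparison. The members' medians lie near 0 for doxycycline and at -0.15 and -0.14 between the lines, and their quartiles between the lines lie below 0.

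At the brightest probe sets the sizes of these line differences were modest. At 1.3-fold, 3 members were lower in the uninduced Hey2 line (6.38%, where 9.64% of all genes were) and 5 in the labelled induced Hey2 line (10.6%, where 7.48% were), and 0 were higher in either state, where 11.8% and 9.7% of all genes were. Rfc3 alone was lower by 1.3-fold in both states, as 4.02% of all genes were, and no member was higher in both, where 6.04% of all genes were. No member reached 1.5-fold at these probe sets. Of all genes 4.42% reached it upward and 4.19% downward in uninduced arrays, and 3.86% and 2.49% in labelled induced ones. Dimmer probe sets of Orc4 did (down to -1.0 uninduced and -0.74 labelled induced), as did a second Mcm6 probe set (-0.60 labelled induced). Within 1.2-fold of the Hey1 line lay 38 members in uninduced arrays (80.9%, where 62.9% of all genes did) and 35 in labelled induced arrays (74.5%, where 68.5% did). Most members thus differed by little, and those past 1.3-fold were all lower.

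The limma fit tested the line with the induction as a block. Over all genes 361 were higher and 186 lower in the Hey2 line at an adjusted p of 0.05 (3.13% and 1.61%), and 0 of the 47 members passed. At an unadjusted p of 0.05, 11 members were lower (23.4%, where 13.8% of all genes were) and 2 higher (4.26%, where 15.9% were). With the 6912 genes above the stricter filter 10 members passed the adjusted threshold (21.3%, where 27.9% of genes did), of which 9 were lower. When the prior variance followed the level and was estimated robustly, 21 did (44.7%, where 25.1% of all genes did). Of these 17 were lower and Cdt1, Pola2, Pold1 and Rfc5 higher. The members' median line difference in the fit was -0.18 beside 0.0067 for all genes.

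Rfc3, a small subunit of the clamp loader that opens Pcna and sets it on DNA, had the largest line difference among the brightest probe sets. It read 10.67 in Hey1 uninduced, 10.66 in Hey1 labelled induced, 10.16 in Hey2 uninduced and 10.14 in Hey2 labelled induced. The lines did not overlap and doxycycline made almost no difference in either. The line difference was -0.51 ± 0.08 (SE), with an adjusted p = 0.0512 by limma over all genes, and its other probe set had -0.47 and -0.56 in uninduced and labelled induced arrays.

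Cdc6, the ATPase that brings the helicase to the origin, read 10.84 and 11.02 in the Hey1 line and 10.49 and 10.51 in the Hey2 line. The gap was wider in the labelled induced arrays, where the Hey1 value was the higher of its line, and came to -0.43 ± 0.09 (SE) in the fit (adjusted p = 0.0742 by limma). Orc5, Orc6, Orc3 and Orc1, subunits of the complex that marks origins, were lower as well, by -0.27, -0.23, -0.23 and -0.20, and Orc2 by -0.20. Cdt1, the other loading factor, went the opposite way from Cdc6: it read 13.10 and 12.99 in the Hey1 line against 13.32 and 13.19 in the Hey2 line.

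The GINS complex ties the helicase to the polymerases. Its subunit gene Gins1 read 11.53 and 11.38 in the Hey1 line and 11.10 and 11.03 in the Hey2 line, and Gins3 read 9.32 and 9.30 against 9.0 and 8.93. Both were lower in each Hey2-line array, by -0.39 ± 0.08 and -0.35 ± 0.08 (SE) in the fit, with adjusted p of 0.0750 and 0.0861 by limma. A second Gins3 probe set had -0.43 and -0.42. Gins2 differed between its probe sets: the brighter had 0.03 and -0.22, and the other -0.29 and -0.16, lower in both states. Gins4 had 0.04 and 0.12. Cdc45, which joins GINS on the helicase, had -0.07 in uninduced and -0.38 in labelled induced arrays. Its dimmer probe set above the filter had 0.09 and -0.06.

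At the brightest probe set of each gene, all 6 helicase genes were lower in the Hey2 line in both states, from -0.10 (Mcm2) to -0.23 (Mcm6) in uninduced cells and from -0.11 (Mcm7) to -0.39 (Mcm6) in labelled induced ones. Mcm6 read 12.32 and 12.51 in the Hey1 line against 12.09 and 12.12 in the Hey2 line. Its line difference was -0.31 ± 0.09 (SE, adjusted p = 0.116 by limma), and Mcm3 (-0.26) was the other helicase gene with an unadjusted p under 0.05. Not every other probe set above the filter had this sign: a second one of Mcm2 had 0.01 and 0.05, a dimmer one of Mcm5 0.09 and 0.10, and a dim one of Mcm3 0.07 and -0.31.

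The polymerases were divided. Pold1, the catalytic subunit of polymerase delta, which copies the lagging strand, read 10.54 and 10.44 in the Hey1 line against 10.84 and 10.63 in the Hey2 line. Pola2, the regulatory subunit of polymerase alpha, read 10.15 and 10.07 against 10.38 and 10.31. Both were higher in each Hey2-line array, by 0.24 ± 0.08 each (SE, adjusted p of 0.156 and 0.147 by limma), as was Pole, the catalytic subunit of the leading-strand polymerase (0.21 and 0.12). The primase subunit genes Prim1 (-0.33 and -0.20) and Prim2 (-0.05 and -0.48) were lower, and so was Pola1 (-0.41 and -0.06). A second Prim2 probe set above the filter had 0.01 and -0.19. Of the accessory subunit genes, Pole2 was lower in both states (-0.11 and -0.14) and Pold2 had -0.14 and 0.03.

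In the clamp loader Rfc4 (-0.25 ± 0.08, SE, adjusted p = 0.132 by limma) was lower too, whereas Rfc5 had 0.22 and 0.12, higher in both states. Rfc2 (-0.15 and -0.04) and the clamp gene Pcna (-0.11 and -0.07) were lower in both states, and Rfc1 had -0.16 and 0.00071. Rpa2, the middle subunit of the protein that coats single-stranded DNA, was lower by -0.25 in the fit and Rpa1 had 0.00041. Rpa3, the smallest subunit, had -0.21 and -0.13. The ligase gene Lig1 (-0.18 and -0.25), the reductase genes Rrm1 (-0.24 and -0.14) and Rrm2 (-0.16 and -0.21) and the thymidine kinase gene Tk1 (-0.16 and -0.19) were lower in both states. Dbf4, the activator of Cdc7, was level in uninduced arrays (0.01) and higher by 0.19 in labelled induced ones, while Cdc7 had -0.26 and -0.11. A dimmer Cdc7 probe set above the filter had -0.07 and 0.23. Mcm10, which helps to switch the helicase on, had -0.10 and -0.28, and 0.05 and -0.04 at a dimmer probe set above the filter. Timeless, of the fork protection complex, had -0.05 and -0.09 at its brighter probe set and 0.17 and 0.11 at the other.

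**Figure D4:**
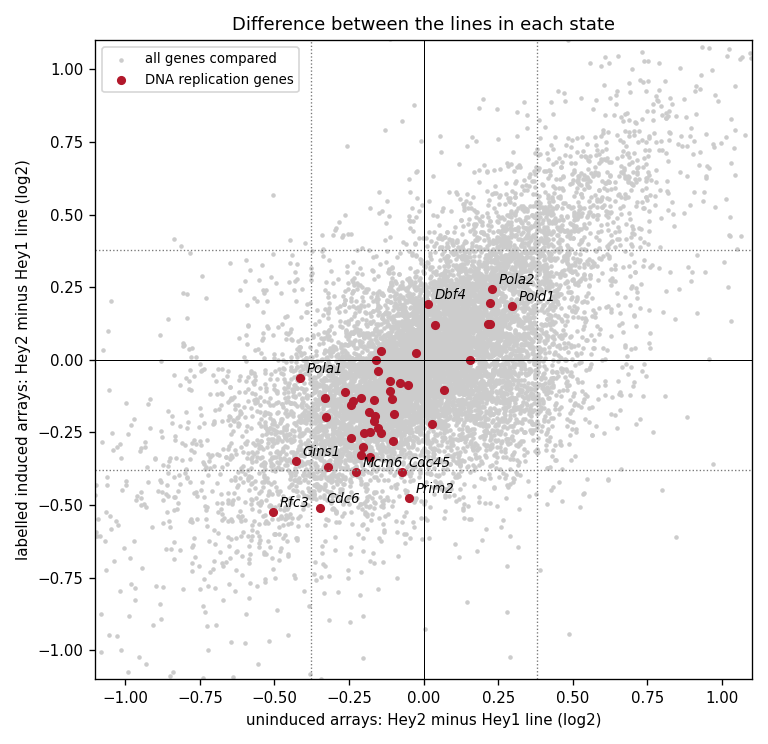
Log2 difference of the Hey2 minus the Hey1 line in uninduced arrays (horizontal) and in labelled induced arrays (vertical). Red points are the 47 members and grey points all genes compared, of which 197 lie beyond the axes at 1.1, and dotted lines mark 1.3-fold. Most red points lie at the lower left, with Rfc3 past 1.3-fold in both states, and Pola2 and Pold1 lie in the upper right.

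Probe sets of the same gene mostly, though not always, gave the same direction between the lines. Of the 88 member probe sets above the filter, 68 were lower in the uninduced and 70 in the labelled induced Hey2 line, with medians of -0.16 and -0.19. Among the 29 members with more than 1 such probe set, all probe sets had the same sign in 19 in uninduced and 23 in labelled induced arrays, against 13 and 22 for doxycycline in the Hey1 and Hey2 lines. The widest spread was that of Orc4. The probe set used for it differed by -0.08 in both states, while the others above the filter differed by up to -1.0 in uninduced and -0.74 in labelled induced arrays. The size of the Orc4 difference is therefore uncertain.

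**Figure D5:**
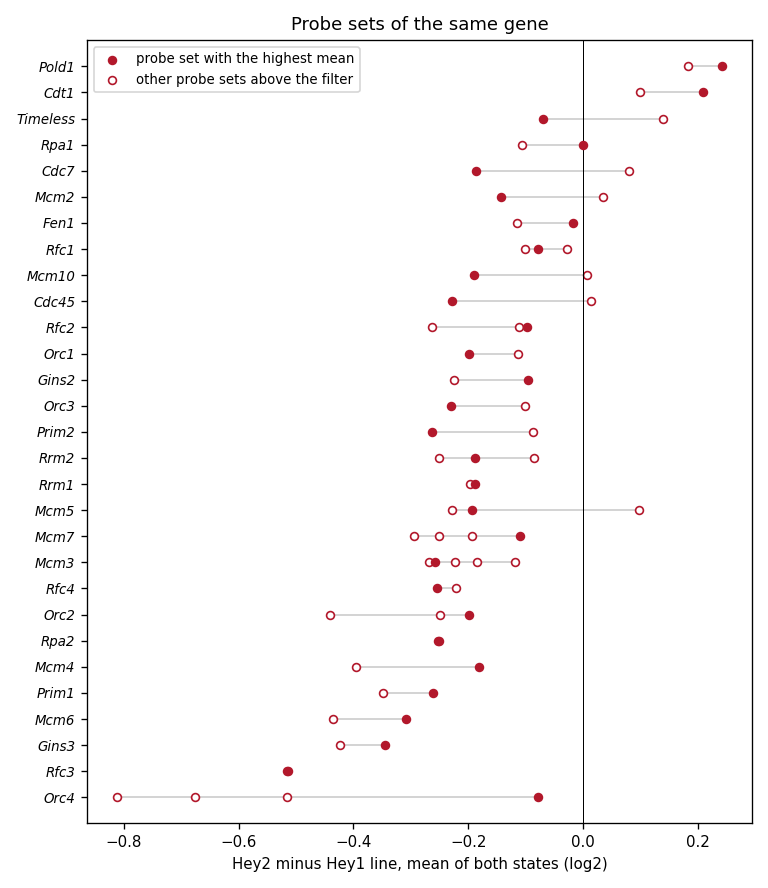
Hey2 minus Hey1 line difference (log2, mean of both states) of each probe set above the filter, for the 29 members with more than 1. Filled points are the probe sets used to represent the gene, and open points the others. Both Rfc3 probe sets lie at the same place, and the Orc4 probe sets are spread widely.

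Promoters are shown for some members with an unadjusted p under 0.05 for the line in the limma fit, as given in RefSeq (GRCm38.p6), to show the sequence context of genes that were lower together and of a member that was higher. The table held 50 promoter windows of 41 of the 49 genes, and the 250 bases before each start site were searched on both strands for the E2F motif, spelled as TTTCCCGC, TTTGGCGC, TTTCGCGC or TTTGCCGC, whose matches can overlap each other, as they do in Mcm6. Rfc3, Gins3 and Mcm6, lower genes whose window holds it and lies at the outer edge of the gene, and Pold1, a higher one, are printed 5′ to 3′ on the gene's own strand, with E2F and CCAAT matches in capitals. Rfc3 lies at chr5:151651209-151651458 (- strand), Gins3 at chr8:95633309-95633558 (+ strand), Mcm6 at chr1:128359706-128359955 (- strand) and Pold1 at chr7:44548816-44549065 (- strand).
Rfc3: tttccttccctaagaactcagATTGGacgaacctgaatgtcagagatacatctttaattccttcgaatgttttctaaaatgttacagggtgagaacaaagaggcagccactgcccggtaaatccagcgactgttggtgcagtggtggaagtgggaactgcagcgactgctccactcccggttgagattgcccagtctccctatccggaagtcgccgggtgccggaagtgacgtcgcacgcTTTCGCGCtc
Gins3: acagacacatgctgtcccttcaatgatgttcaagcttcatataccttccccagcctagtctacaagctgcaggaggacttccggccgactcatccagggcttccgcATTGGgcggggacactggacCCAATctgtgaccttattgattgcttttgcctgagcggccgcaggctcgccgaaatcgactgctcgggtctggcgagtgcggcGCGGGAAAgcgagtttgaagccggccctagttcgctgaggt
Mcm6: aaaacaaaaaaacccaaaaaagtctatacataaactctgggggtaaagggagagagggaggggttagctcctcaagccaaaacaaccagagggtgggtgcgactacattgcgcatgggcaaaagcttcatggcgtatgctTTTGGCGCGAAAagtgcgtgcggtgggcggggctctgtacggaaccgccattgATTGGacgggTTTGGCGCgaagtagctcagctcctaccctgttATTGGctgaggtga
Pold1: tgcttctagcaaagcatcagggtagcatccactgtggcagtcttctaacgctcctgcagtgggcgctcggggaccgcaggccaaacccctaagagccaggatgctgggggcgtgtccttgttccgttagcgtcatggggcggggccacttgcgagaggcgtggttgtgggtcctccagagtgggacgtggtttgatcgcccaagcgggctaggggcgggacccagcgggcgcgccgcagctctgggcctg

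The E2F match of Rfc3 ends 3 bases before the start site, as TTTCGCGC. That of Gins3 stands 41 to 34 bases before it as GCGGGAAA, the opposite strand of TTTCCCGC. Mcm6 holds 3 matches, of which 2 overlap between 110 and 99 bases before the start, and the window of Pold1 holds none. The printed lower genes were chosen for holding the motif: Mcm3, Orc5, Orc6, Prim1, Rfc4 and Rpa2, also lower at an unadjusted p under 0.05 by limma, have windows without it.

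Over all members the E2F motif was found in 9 of 50 windows (18.0%), where 1.86% of all 32851 windows of this length hold it. The CCAAT box, searched as CCAAT, was in 25 of 50 (50%, where 33.8% of all do). CACGTG and CACGCG, the E-box forms that Hey proteins are known to bind, were in 14.0% and 12.0% of member windows, where 6.02% and 7.62% of all windows hold them. The 9 genes with the E2F motif were Cdc6, Gins3, Mcm5, Mcm6, Mcm7, Orc1, Orc3, Pola1 and Rfc3. At the brightest probe set of each, all 9 were lower in the Hey2 line in both states, with medians of -0.32 and -0.25. Of the 30 compared genes whose windows lack these letters, 23 and 21 were lower, with medians of -0.13 and -0.13. The CCAAT letters stood in windows of 23 compared genes, of which 23 and 20 were lower, while 9 and 10 of the 16 genes without them were. At the brightest probe sets, the few genes with the E-box letters did not lean that way. Of these, 3 and 2 of the 5 with CACGTG and 2 and 2 of the 6 with CACGCG were lower. Their medians were -0.024 and 0.00071, and 0.041 and 0.00070. This depends on the probe set. Dimmer ones above the filter had -0.04 and -0.19 for Fen1, -0.13 and -0.09 for Rpa1 and -1.0 and -0.63 for Orc4. Those of Rfc1 had mixed signs (-0.09 and 0.03, and 0.08 and -0.28). At the brightest probe sets, the 34 compared genes whose windows lack CACGTG had medians of -0.17 and -0.19. The 33 whose windows lack CACGCG had -0.16 and -0.19. A match is a run of letters and not a measured site, and no match says only that the letters are not in this window.

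Of 40 further replication genes, 38 were compared. In the line test 1 passed in each direction over all genes, and both belong to the alternative clamp loader used in sister chromatid cohesion: Dscc1 was lower in the Hey2 line (-0.63, adjusted p = 0.0441 by limma) and Chtf18 higher (0.53, adjusted p = 0.0496). Dscc1 read 9.84 and 10.04 in the Hey1 line against 9.25 and 9.37 in the Hey2 line, and Chtf18 read 8.77 and 8.69 against 9.29 and 9.24, so neither overlapped between lines. The list's medians were -0.12 and -0.0042 between the lines, and 25 and 19 of the 38 were below 0. For doxycycline the medians were -0.043 in the Hey1 and 0.0030 in the Hey2 line, and no gene passed the common test over all genes. The largest common differences were those of Rrm2b, the p53-inducible reductase subunit (0.35 and 0.46), the topoisomerase gene Top1 (0.11 and 0.46) and Pold4 (-0.25 and -0.13).

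The 18 E2F and pocket protein genes, upstream regulators of many members, had medians of 0.059 and 0.10 between the lines and of -0.041 and 0.065 for doxycycline in the Hey1 and Hey2 lines. Between the lines they divided nearly evenly, with 10 and 11 above 0, and 0 passed either test over all genes. Mybl2, a B-Myb gene of S phase, was the highest (0.42 and 0.69), and Lin9, its partner in the MuvB complex, was among the lowest (-0.31 and -0.48). After doxycycline E2f6, a repressor E2F, had 0.42 in the Hey1 and 0.12 in the Hey2 line, and Lin9 0.36 and 0.19. The 11 S phase cyclins and kinases had medians of 0.00078 and -0.057 between the lines. Their largest mean differences after doxycycline were those of Wee1 (-0.33 and -0.09), Ccna2 (-0.19 and -0.11) and Skp2 (0.19 and 0.04).

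Of 12 checkpoint genes, 1 of which (Timeless) is also a member, 10 were lower in the uninduced and 9 in the labelled induced Hey2 line, with medians of -0.17 and -0.11, and 0 passed over all genes. Hus1, of the checkpoint clamp, was lowest (-0.54 and -0.49, adjusted p = 0.0514 by limma). Its differences after doxycycline were 0.27 and 0.33, those of the kinase gene Atr 0.11 and 0.66, and those of Atrip -0.17 and -0.08. Atr was lowest in the uninduced Hey2 array (9.10, against 9.54 in the uninduced Hey1 array). The 17 mitosis genes compared had medians of -0.13 and 0.10 between the lines, and of -0.0050 and 0.076 for doxycycline in the Hey1 and Hey2 lines, with 9 and 4 below 0. Bub1b (-0.11 and -0.19), Cdca8 (-0.07 and -0.19) and Cdc20 (-0.05 and -0.11) were lower in the labelled induced array of both lines. At the other end Cenpf (0.40 and 1.43), Cenpe (0.34 and 1.32) and Mki67 (0.13 and 0.91) were higher in those of the Hey1 and Hey2 lines. For each of them the uninduced Hey2 array was the lowest, at -0.81, -0.65 and -0.59 from the uninduced Hey1 array. Between the labelled induced arrays Hey2 minus Hey1 was 0.23, 0.33 and 0.19.

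Other measures also differed between the lines. Of the 4 fibroblast markers above the filter, Vim (-1.94, adjusted p = 0.0320 by limma) and Thy1 (-1.85) were lower in the Hey2 line. Thy1 read 7.13 and 7.80 in the Hey1 line against 5.51 and 5.73 in the Hey2 line. It passed the filter of 6.05 only through the Hey1 line, so its p-value is left out. Fn1 had the opposite sign (0.35, adjusted p = 0.117 by limma). Col1a2 had 0.23 in uninduced and -0.24 in labelled induced arrays. The sum of the 11 markers on the linear scale was 7796 and 7509 in the Hey1 line against 5005 and 5652 in the Hey2 line. It rests mostly on the brightest markers, Vim and Fn1, and is no general fibroblast measure. Vim read 12.11 and 11.92 in the Hey1 line against 10.22 and 9.94 in the Hey2 line. Fn1 read 11.52 and 11.60 against 11.74 and 12.07, so the lower sum follows Vim. The sum of the 10 pluripotency markers was 101300 and 100400 against 97150 and 100500, and 5 of the 10 were lower in the uninduced and 4 in the labelled induced Hey2 line. Nanog had -0.54 and -0.36, while Utf1 had 0.24 and 0.26 and Fgf4 0.15 and 0.30. Among differentiation markers, of which 8 of 13 passed the filter, 3 were lower in the uninduced and 5 in the labelled induced Hey2 line. Sox1 was lower (-1.23, adjusted p = 0.0352 by limma), and Eomes had the opposite sign (0.46, adjusted p = 0.0602). In the Hey2 line Sox1 read 7.05 uninduced and 5.98 labelled induced, the latter below the filter. RNA quality was read from the 3′ minus 5′ difference of control probe sets. For Tfrc it was 0.955 and 0.836 in the Hey1 line and 0.669 and 0.957 in the Hey2 line, and for Actb it was 0.480 and 0.513 against 0.393 and 0.424. The part of these measures in the line difference of the replication genes was not tested.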

How the data were processed

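Expression was measured in 4 samples of embryonic stem cells, 1 Affymetrix array per group. The deposited log2 values are probe set summaries made by the authors with RMA, per the submitters' processing notes. RMA normalises arrays by quantiles, so sorted values differed by at most 0.0024 between arrays and a shift of all genes together cannot be seen. The values, from 2.67 to 15.2, lie in the range of a log2 scale. The sources used here do not give the RMA version or the build, and array values carry no depth.

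Of 45101 probe sets, 34958 had 1 gene symbol in the platform annotation, 932 several and 9211 none, and only the first were used. The gene IDs of 34754 matched RefSeq (GRCm38.p6), and 0 symbols changed. For each gene the brightest probe set by mean was taken, and the gene was compared if its mean over the 4 arrays reached 6.05, the median of all values. Differences between 2 arrays were given without a test. The common response and the line difference were fitted in R 4.3.3 by limma 3.58.1 (eBayes after lmFit, each factor as the other's block, Benjamini-Hochberg over all 11551 genes). Nothing in the labels says that arrays came from separate cultures, so p-values cover the spread of these samples alone, which may be technical. That spread is not each gene's own: limma joined 1 residual degree of freedom with a prior drawn from all genes. The prior had 3.08 degrees of freedom and an SD of 0.0905, so it weighed more in each SE than the gene itself. Only the fit of the common response was checked on simulated data, with changes larger than the members' common differences at their brightest probe sets. The fit of the line difference was not checked in this way. Python 3.11.15, numpy 2.4.6 and pandas 2.3.3 did the rest.

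The members and lists were chosen with earlier results of these data known. The rule for named genes took every member past 1.5-fold, the 5 largest differences per direction and comparison, members with an unadjusted p under 0.05 in a fit, at least 2 members per role, and from each other list the 3 genes with the largest mean difference over the lines and any past 2-fold. Any other gene was named with its values in view. The alternatives were a filter at the 75th percentile (8.31), on the highest value or none, cyclic loess, median centring, an offset of 32, the mean of probe sets and every probe set. Others were the other line's uninduced array, a robust prior variance that follows the level, no block, each array left out, and 1.5-fold and 2-fold.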

Additional observations from a re-analysis of the deposited data

Results flagged for a closer look

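Prim2 was the only compared member whose differences after doxycycline had opposite signs in the lines and lay at least 1.3-fold apart: 0.34 (Hey1 line) against -0.09 (Hey2 line), a gap of -0.43. Its second probe set above the filter had -0.02 and -0.22. The difference between the lines' responses was not tested, since all 4 arrays are used up by it.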

How the results depend on the processing

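Of 146 alternative values, 125 stayed within 0.1 on the log2 scale (medians) or 1.5 times (counts) of the value reported, and 21 moved. Many of the 125 could not move, so their number is no measure of robustness. A count of 0 at 1.3-fold has to be 0 at 1.5-fold and 2-fold. The stricter filter and that on the highest value kept the same 47 members, so medians and fold counts were fixed. Against the other line's uninduced array the median after doxycycline was 0.15 in the Hey1 line, from -0.00042 and so with another sign, and -0.14 in the Hey2 line. This alternative adds the line difference to each value by its construction, and the counts past 1.3-fold became 6 higher and 1 lower in the Hey1 line and 3 lower in the Hey2 line. Counted over every probe set, 1 was higher and 1 lower in the Hey1 line, 2 higher and 1 lower in the Hey2 line, and 10 uninduced and 15 labelled induced were lower between the lines. Without the level filter Tyms made 1 higher in the Hey2 line. At 1.5-fold and 2-fold the counts between the lines, at the brightest probe sets, were 0. The number of members that passed the line test was 0 as reported, 1 with cyclic loess (Rfc3), 2 with the mean of probe sets (Orc4 and Rfc3), 3 with the linear offset (Cdc6, Gins1 and Rfc3), 10 with the stricter filter and 21 with the robust prior variance that follows the level. Under the stricter filter fewer genes were tested, but the members' counts at an unadjusted p of 0.05 by limma rose as well. They went from 11 to 23 lower and from 2 to 4 higher. The cause of these changes was not tested. With each array left out in turn, in fits without the block, 0 members passed either test, and the members' median line difference ran from -0.17 to -0.14. The median of the common response ran from -0.080 to 0.073 in these fits, which mix the line with the induction. The labels carry no replicate numbers, and the line is the block that pairs uninduced with labelled induced arrays in the fit of the common response. Low signal limits Tyms only, and 1 array per group limits every difference.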
